A study of Mus musculus with 37 samples.

Results

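The genes described here make cholesterol and fatty acids, set the rate of that synthesis, or carry cholesterol within and out of the cell. They were taken as a list of 39 gene symbols, grouped by these functions. Of these, 34 had a probe on the array and 32 were tested, among 12866 genes in all. Hmgcs1, Fdft1, Acat2, Nr1h2 and Soat1 had no probe with their symbol. Acaca and Abca1 had probes that were not kept, because a probe was kept only where its signal stood above the negative controls (detection p under 0.05) on at least 3 arrays. Fasn was kept with a signal above background on exactly 3 arrays, so its values lie near background throughout.

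Total RNA of whole mouse kidneys was measured on Illumina bead arrays, with 37 arrays from 25 mice in 12 groups. In unilateral ureteral obstruction, an operation that leads to tubular injury and scarring, the ureter of 1 kidney is blocked and the other, contralateral kidney keeps a free ureter. Obstructed kidneys came from 4 ggt-cre+;Twist flox/flox mice (Twist1-deleted, mice 4 to 7), 3 ggt-cre-;Twist flox/flox mice (Twist1-line controls, mice 1 to 3), 3 ggt-cre+;Snail flox/flox mice (Snai1-deleted, mice 11 to 13) and 3 ggt-cre-;Snail flox/flox mice (Snai1-line controls, mice 8 to 10). Contralateral kidneys of the same animals gave 3 arrays a group, and that of mouse 5 was not analysed here. Healthy kidneys, with no operated mate, came from 3 ggt-cre+;Twist flox/flox mice, 3 ggt-cre+;Snail flox/flox mice, 3 ggt-cre+;WT mice and 3 ggt-cre-;WT mice. The ggt promoter drives cre in proximal tubule epithelium, so other kidney cells keep both genes. The controls of the operated lines carried the same floxed alleles without cre, so that cre and the deletion cannot be told apart there. The operated and wild-type mice were 10 weeks old and the healthy deleted mice 26 weeks old. By their labels, C57Bl/6 was mixed with sv129 in wild-type animals and the Twist1 line, but with Balb/c in the Snai1 line. The labels do not say how long the ureter had been blocked.

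Cholesterol is built from acetyl-CoA through mevalonate and squalene to lanosterol, which a chain of sterol enzymes trims to cholesterol. The membrane-bound factors SREBP-1 and SREBP-2, encoded by Srebf1 and Srebf2, switch on the genes of this route and of fatty acid synthesis. Scap escorts them to the Golgi for cleavage when sterols are low, and Insig proteins hold them in the endoplasmic reticulum when sterols are high. LXR receptors sense oxidised sterols and switch on genes of cholesterol efflux such as Abca1, Abcg1 and Apoe.

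Promoter sequences from 250 bases before to 50 bases after the gene start were matched in RefSeq (build GRCm38.p6) for 31 of the 39 genes. The genes without an entry were Fdps, Fdft1, Sqle, Scd1, Scd2, Abcg1, Stard4 and Npc1. The letters of the sterol element TCACNCCAC, the kind of site SREBPs bind, were searched on both strands and stood in 1.24% of 32544 promoters. Among the members they stood in Hmgcs1 alone, the synthase of the mevalonate route. A direct repeat of AGGTCA with 4 bases between the copies, the kind of site LXR binds, stood in 0.02% of promoters and in 0 members. CCAAT, the box bound by NF-Y, was read on both strands (ATTGG is its reverse complement, and matches on opposite strands can share letters, as in CCAATTGG). It stood in the promoters of 23 of 31 member genes, against 41.0% of all 26742 genes with a promoter. By obstruction change, given below, it stood in 15 of the 17 members with a promoter that were lower in obstructed kidneys, in 1 of 2 that were higher, in 5 of 6 not past the threshold, and in 2 of 6 without a tested probe. The stretches below show the sterol element of Hmgcs1 and, in 5 enzymes that were lower in obstructed kidneys, a CCAAT box with up to 35 bases on each side. Capitals mark the motif letters, and each sequence runs 5′ to 3′ along the gene's own strand.
Hmgcs1, chr13:119690189-119690247, plus strand: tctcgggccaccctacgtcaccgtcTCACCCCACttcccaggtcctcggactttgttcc
Cyp51, chr5:4104687-4104761, minus strand: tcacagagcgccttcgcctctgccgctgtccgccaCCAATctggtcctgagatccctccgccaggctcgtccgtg
Mvd, chr8:122443410-122443484, minus strand: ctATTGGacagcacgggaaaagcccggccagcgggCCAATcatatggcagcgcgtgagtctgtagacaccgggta
Idi1, chr13:8885557-8885631, plus strand: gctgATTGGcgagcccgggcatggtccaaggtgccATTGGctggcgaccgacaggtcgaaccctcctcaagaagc
Lss, chr10:76531508-76531582, plus strand: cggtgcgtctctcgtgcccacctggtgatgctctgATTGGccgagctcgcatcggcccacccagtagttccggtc
Ebp, chrX:8193528-8193602, minus strand: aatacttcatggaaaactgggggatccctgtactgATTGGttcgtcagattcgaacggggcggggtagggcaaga
A match of letters is a description of the sequence and was not set against binding of any factor.

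Between 16977 and 20682 probes were above background on each array. Twist1 lay near background in every group, and its group ranges in obstructed kidneys were 4.55 to 5.05 in Twist1-deleted mice and 4.69 to 5.41 in Twist1-line controls (log2 change -0.34, SE 0.19, adjusted p = 0.508). Snai1 in obstructed kidneys was 4.80 to 5.61 in Snai1-deleted mice and 5.30 to 5.99 in Snai1-line controls (log2 change -0.36, SE 0.27, adjusted p = 0.666). Other cells of the kidney keep both genes, and where their probes lie relative to the deleted exons is not given in the sources used here, so these levels do not check the labels. Markers of the proximal tubule, where cre acts, were detected in all 12 groups. Values below are log2 intensities after background correction and quantile normalisation. Folds and adjusted p-values are from limma (Benjamini-Hochberg over all 12866 genes, threshold 0.05). The p-values of the main model rest on the spread between arrays within groups, pooled over all 12 groups. That model takes both kidneys of a mouse as independent.

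Averaged over the 4 genotypes, obstructed kidneys had lower levels of most sterol synthesis enzymes and higher levels of Apoe than contralateral kidneys. In this comparison 18 of 32 members were lower, 4 were higher and 10 did not pass, where 62.2% of all genes passed (33.6% higher and 28.7% lower). The median change of the members was -0.46 on the log2 scale, against 0.01 over all genes. In Twist1-deleted mice 13 members were lower and 3 higher, where 40% of all genes passed (21.9% higher, 18.2% lower). In Twist1-line controls 16 were lower and 4 higher, where 47.1% of all genes passed (26.6% higher, 20.5% lower). In Snai1-deleted mice 3 were lower and 2 higher, where 15.2% of all genes passed (10.5% higher, 4.76% lower). In Snai1-line controls 13 were lower and 2 higher, where 36.3% of all genes passed (21% higher, 15.3% lower). The members' medians were -0.53 in Twist1-deleted mice, -0.67 in Twist1-line controls, -0.33 in Snai1-deleted mice and -0.51 in Snai1-line controls, while the all-gene medians were 0.01, 0.05, 0 and 0.02 in the same order. In whole kidneys, fewer cells of a type and less RNA per cell cannot be told apart.

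The size of these counts rested partly on single mice and on the scaling. Without mouse 13 the Snai1-deleted count was 1 member in place of 5, and without mouse 5 the Twist1-deleted count was 10 in place of 16. With mouse as a fixed block, which leaves out mouse 5, 8 members passed in Snai1-deleted mice (Idi1, Mvd, Tm7sf2 and Apoe, and newly Insig1, Lss, Me1 and Msmo1, but not Npc1). In Twist1-deleted mice the fixed block ended the calls of Mvk (-0.54, adjusted p = 0.0744), Hsd17b7 (-0.41, adjusted p = 0.0755), Scap (-0.37, adjusted p = 0.0734) and Insig2 (-0.23, adjusted p = 0.21) and called Pmvk (-0.40, adjusted p = 0.0477) and Me1. With the authors' series matrix values the median of all genes was -0.136 in Twist1-deleted mice, -0.087 in Twist1-line controls, -0.041 in Snai1-deleted mice, -0.078 in Snai1-line controls and -0.093 averaged. Of the genes past the threshold with those values, 42% were higher in the averaged comparison, against 53.9% in the values used here. The same shares were 41.2% against 54.6% in Twist1-deleted mice, 43.6% against 56.5% in Twist1-line controls, 66.4% against 68.8% in Snai1-deleted mice and 45.1% against 57.9% in Snai1-line controls. In the averaged comparison 20 members were lower and 3 higher with the series matrix values, where 8161 of all 12866 genes passed.

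**Figure D1:**
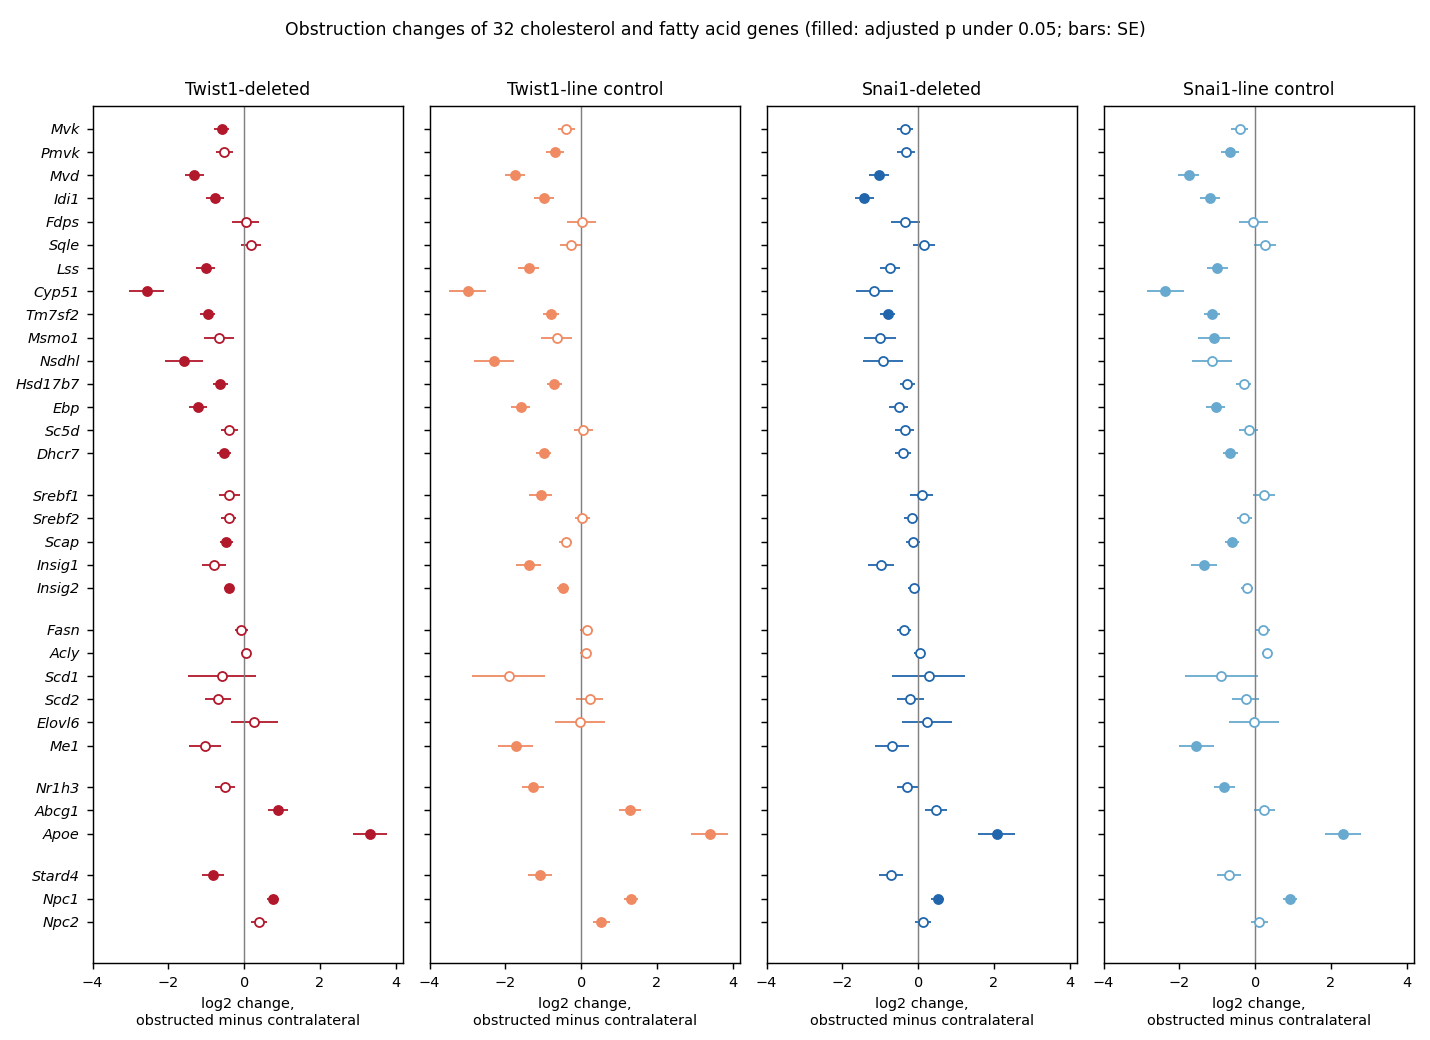
Log2 change (obstructed minus contralateral kidney, x axis) of each of the 32 tested genes (rows, grouped by role) in Twist1-deleted mice, Twist1-line controls, Snai1-deleted mice and Snai1-line controls, with bars for the SE and filled points for an adjusted p under 0.05. Cyp51 (-2.57, -3.00, -1.16 and -2.37 across the panels) lies farthest to the left in 3 of the 4 panels, Idi1 (-1.42) in that of Snai1-deleted mice, and Apoe (3.33, 3.39, 2.07 and 2.31) lies farthest to the right.

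Of the 18 sterol synthesis enzymes 15 were tested, and averaged over the genotypes 12 were lower, 0 higher and 3 did not pass, with a median change of -0.85. Cyp51, the demethylase that takes the first methyl group off lanosterol, showed the largest fall of the members, 4.85-fold (log2 change -2.28, SE 0.24, adjusted p = 2.82e-09). In Twist1-deleted mice Cyp51 was 7.81, 7.72, 7.29 and 10.57 in obstructed kidneys, against 11.16, 10.88 and 10.71 in contralateral kidneys. In Twist1-line controls it was 8.88, 7.52 and 7.54 in obstructed kidneys, against 11.14, 10.90 and 10.91 in contralateral kidneys. The obstructed kidney of mouse 7, at 10.57, lay far above the other 3 of its group and just below its own contralateral kidney. In Snai1-deleted mice Cyp51 was 9.78, 9.61 and 9.17 in obstructed kidneys, against 10.72, 10.46 and 10.86 in contralateral kidneys. In Snai1-line controls it was 8.44, 9.28 and 7.79 in obstructed kidneys, against 10.80, 11.08 and 10.75 in contralateral kidneys. The kidneys did not overlap within any genotype, and the obstructed one was lower in 12 of 12 mice. The change was -2.57 (SE 0.46, adjusted p = 6.62e-05) in Twist1-deleted mice and -3.00 (SE 0.49, adjusted p = 1.13e-05) in Twist1-line controls. It was -1.16 in Snai1-deleted mice, where it did not pass (SE 0.49, adjusted p = 0.11), and -2.37 (SE 0.49, adjusted p = 0.000373) in Snai1-line controls.

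In the mevalonate part of the route, Mvd, the decarboxylase that makes isopentenyl diphosphate, was lower in obstructed kidneys of every genotype. In Twist1-deleted mice Mvd was 7.35, 7.48, 7.88 and 8.14 in obstructed kidneys, against 9.43, 9.16 and 8.51 in contralateral kidneys. In Twist1-line controls it was 7.40, 7.31 and 7.72, against 9.01, 9.15 and 9.54 in contralateral kidneys. All 13 obstructed kidneys lay below all 12 contralateral kidneys. In Snai1-deleted mice Mvd was 8.48, 7.54 and 7.97 in obstructed kidneys, against 8.90, 8.61 and 9.56 in contralateral kidneys. In Snai1-line controls it was 7.31, 7.58 and 6.67, against 9.14, 9.09 and 8.60 in contralateral kidneys. The averaged change was -1.46 (SE 0.13, adjusted p = 1.01e-10), a 2.76-fold fall, and Mvd passed in all 4 genotypes, in Snai1-deleted mice (-1.03, adjusted p = 0.00808) no longer without mouse 13 (-0.75, adjusted p = 0.186).

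Idi1, the isomerase of isopentenyl diphosphate, was also lower in every genotype (averaged change -1.09, SE 0.13, adjusted p = 2.15e-08). In Twist1-deleted mice Idi1 was 4.77, 4.84, 4.71 and 5.01 in obstructed kidneys, against 5.24, 6.19 and 5.37 in contralateral kidneys. In Twist1-line controls it was 4.74, 4.67 and 5.01, against 5.54, 5.67 and 6.16 in contralateral kidneys. The probe was detected on 7 of the 13 obstructed arrays and on all 12 contralateral arrays, so the obstructed values lie near background. In Snai1-deleted mice Idi1 was 5.30, 4.65 and 4.98 in obstructed kidneys, against 6.54, 6.04 and 6.59 in contralateral kidneys. In Snai1-line controls it was 4.93, 4.89 and 4.82, against 6.25, 6.40 and 5.58 in contralateral kidneys. The kidneys did not overlap within any genotype. The change in Twist1-deleted mice (-0.77, adjusted p = 0.0138) did not pass without mouse 6 (-0.43, adjusted p = 0.256). Pmvk, phosphomevalonate kinase, fell by 0.55 (SE 0.11, adjusted p = 0.000136) and Mvk, mevalonate kinase, fell by 0.43 (SE 0.11, adjusted p = 0.000857) in the averaged comparison. Pmvk was lower in 12 of 12 mice and Mvk in 10. Fdps, the farnesyl diphosphate synthase, did not pass in any genotype (averaged change -0.08, 95% interval -0.47 to 0.30).

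Past squalene, Sqle, the squalene epoxidase, did not pass (0.07, interval -0.22 to 0.37), and its 2 kept probes disagreed. The dimmer Sqle probe had -0.59 averaged and -2.06 in Twist1-line controls, where the brighter one had -0.28. Lss, the cyclase that closes squalene epoxide into lanosterol, had a lowest value of 6.14, a median of 6.87 and a highest value of 7.83 in 13 obstructed kidneys, against 7.32, 8.02 and 8.65 in 12 contralateral kidneys. Lss was lower in 12 of 12 mice, although the obstructed kidneys of mice 7, 11, 12 and 13 lay above the lowest contralateral kidney, that of mouse 6. The averaged Lss change was -1.04 (SE 0.13, adjusted p = 8.8e-08), and a dimmer probe of the gene had -0.19. It passed in Twist1-deleted mice (-1.01, adjusted p = 0.00217), Twist1-line controls (-1.39, adjusted p = 0.000101) and Snai1-line controls (-1.0, adjusted p = 0.00438), while Snai1-deleted mice had -0.75 (adjusted p = 0.0599, or 0.0324 with mouse as a block).

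Tm7sf2, a sterol reductase that acts after Cyp51, had 4.85, 5.37 and 6.17 as lowest, median and highest value in obstructed kidneys, against 6.04, 6.33 and 6.76 in contralateral kidneys. Only the obstructed kidney of mouse 7 reached the contralateral range. Tm7sf2 passed in all 4 genotypes, with -0.96 in Twist1-deleted mice, -0.80 in Twist1-line controls, -0.81 in Snai1-deleted mice and -1.14 in Snai1-line controls. The Snai1-deleted call of Tm7sf2 was lost without mouse 12 (adjusted p = 0.0602) or mouse 13 (adjusted p = 0.0858). Ebp, the isomerase that shifts the ring double bond, had 8.88, 9.46 and 10.67 in obstructed kidneys, against 10.50, 10.76 and 10.98 in contralateral kidneys. Mouse 7 again held the highest obstructed value of Ebp, and the other 12 obstructed kidneys stayed below the contralateral range. Its averaged change was -1.09 (SE 0.12, adjusted p = 9.68e-09), with -1.22 in Twist1-deleted mice, -1.59 in Twist1-line controls, -0.52 in Snai1-deleted mice (adjusted p = 0.166) and -1.04 in Snai1-line controls, the last not past the threshold without mouse 10 (adjusted p = 0.0571). Dhcr7, the reductase of the final step to cholesterol, had 5.00, 5.55 and 6.05 in obstructed kidneys, against 5.68, 6.29 and 6.69 in contralateral kidneys. Dhcr7 was lower in 12 of 12 mice (averaged change -0.65, SE 0.10, adjusted p = 1.22e-06). Its calls in Twist1-deleted mice (-0.54) were lost without mouse 4 or 5, and those in Snai1-line controls (-0.66) without mouse 8 or 9.

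Nsdhl, a sterol dehydrogenase of the demethylation complex, fell 2.82-fold in the averaged comparison (-1.50, SE 0.26, adjusted p = 1.31e-05), and its 4 probes had -1.50, -1.44, -1.55 and -1.11. It passed in Twist1-deleted mice (-1.59, but -1.21 with adjusted p = 0.135 without mouse 4) and Twist1-line controls (-2.30). Nsdhl had -0.94 (adjusted p = 0.247) in Snai1-deleted mice and -1.15 (adjusted p = 0.0944, or 0.0357 with mouse as a block) in Snai1-line controls. Msmo1, the methyl oxidase of the same complex, fell by 0.85 (SE 0.21, adjusted p = 0.000735) and Hsd17b7, its ketoreductase, by 0.48 (SE 0.10, adjusted p = 0.000133). Sc5d, the desaturase before Dhcr7, did not pass (-0.21, interval -0.46 to 0.04).

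**Figure D2:**
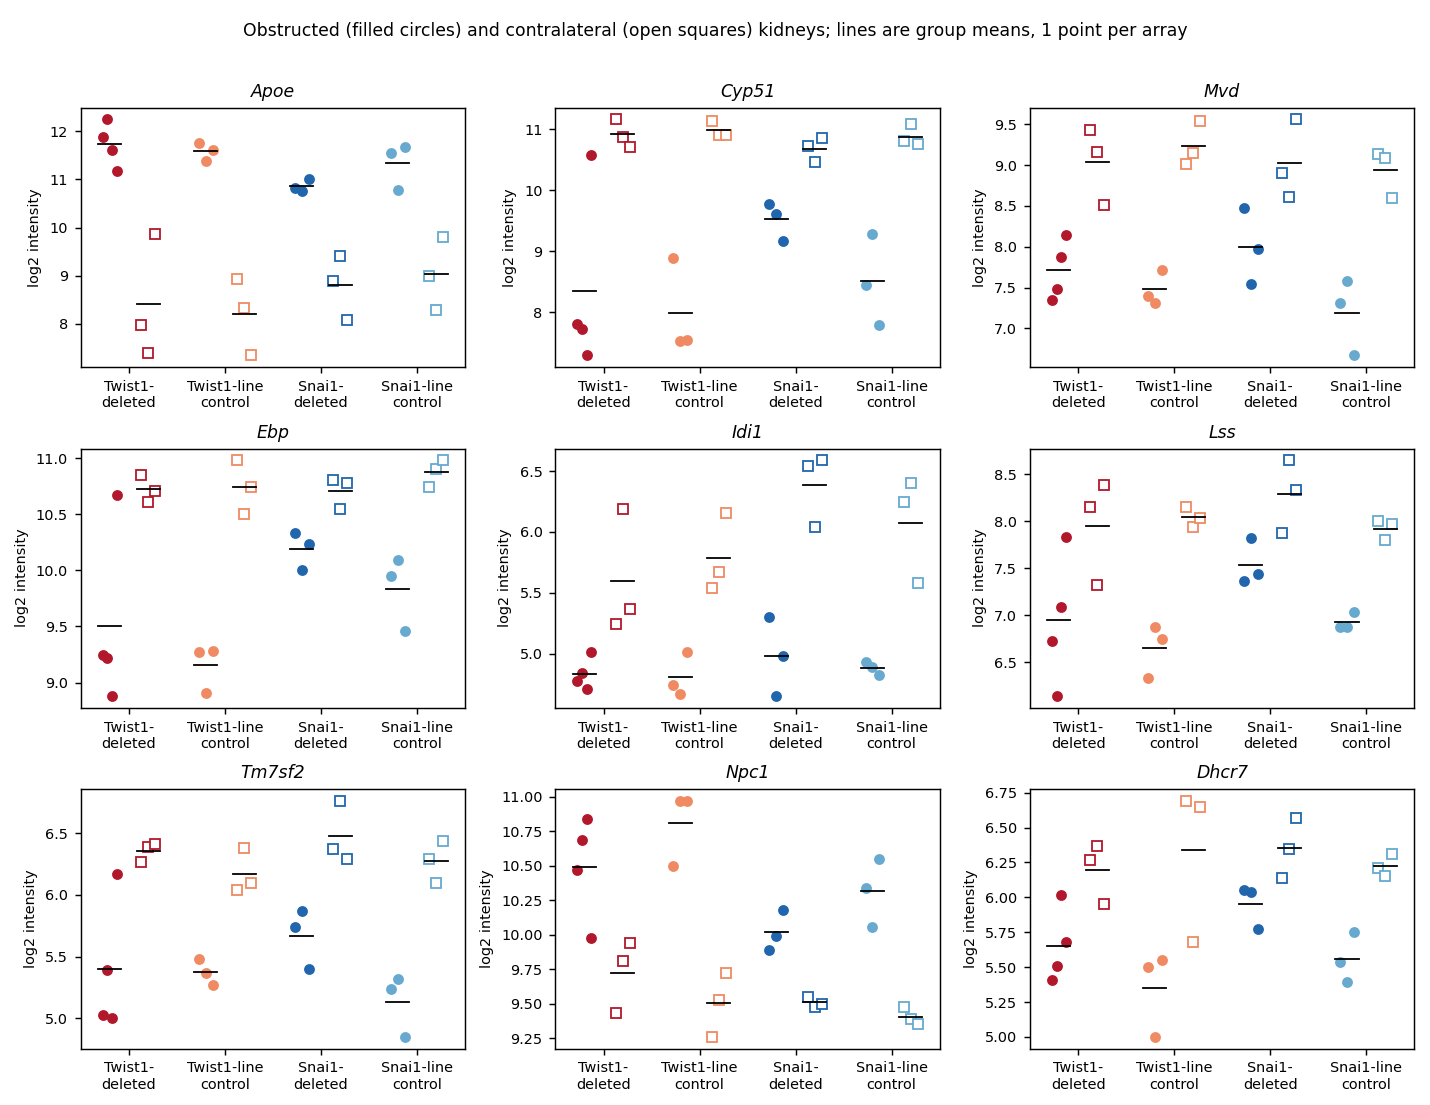
Log2 intensity (y axis) of the 9 genes that passed in at least 3 of the 4 genotypes, 1 point per array, with filled circles for obstructed and open squares for contralateral kidneys and a line at each group mean. Apoe and Npc1 are higher in obstructed kidneys and the 7 sterol enzymes lower, and the obstructed kidney of mouse 7 (Cyp51 10.57, Ebp 10.67, Tm7sf2 6.17) stands apart from the other 3 Twist1-deleted ones.

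Of the 5 SREBP factors and regulators 3 were lower and 2 did not pass (median -0.31). Insig1, the SREBP anchor whose own gene SREBPs switch on, fell 2.18-fold (-1.13, SE 0.17, adjusted p = 1.21e-06). In Twist1-deleted mice it had -0.79 (adjusted p = 0.0506), which passed with mouse as a random block (adjusted p = 0.0258) but not as a fixed block. Twist1-line controls had -1.39 (adjusted p = 0.00136). Snai1-deleted mice had -0.98 (adjusted p = 0.052, or 0.0171 with a fixed block) and Snai1-line controls -1.35 (adjusted p = 0.00254). The call in Snai1-line controls was lost without mouse 10 (adjusted p = 0.0728). The other 2 probes of Insig1 had -0.99 and -0.90. Scap, the SREBP escort, fell by 0.40 (SE 0.09, adjusted p = 0.000247), but its dimmer probe had 0.26. Insig2, the second anchor, fell by 0.31 (SE 0.08, adjusted p = 0.000933) and its other probe had -0.33. Srebf1 did not pass in the averaged comparison (-0.29, interval -0.59 to 0.02), but did with mouse as a fixed block (-0.29, adjusted p = 0.0392). It passed in Twist1-line controls (-1.07, SE 0.30, adjusted p = 0.00473), at 5.45, 5.68 and 4.94 in obstructed kidneys, against 6.73, 6.17 and 6.37 in contralateral kidneys. Without mouse 3 that Srebf1 change was -0.89 (adjusted p = 0.061). Srebf2 did not pass on the chosen probe (-0.21, adjusted p = 0.0673). With that probe it passed with mouse as a random block (adjusted p = 0.031) but not as a fixed block. Its second probe, of similar brightness, had -1.25. The mean of both probes had -0.73 averaged (adjusted p = 2.47e-10) and passed in every genotype. In Twist1-line controls the chosen Srebf2 probe had 0.03 and the mean of both probes -0.73, which reversed the sign.

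Of the 6 tested fatty acid synthesis genes Me1, the malic enzyme that supplies NADPH, passed in the averaged comparison, and Scd1, the stearoyl-CoA desaturase, passed where mouse was a fixed block. Me1 had 6.09, 7.91 and 9.34 as lowest, median and highest value in obstructed kidneys, against 7.88, 9.10 and 10.07 in contralateral kidneys. It was lower in 12 of 12 mice (averaged change -1.25, SE 0.23, adjusted p = 1.89e-05). It passed in Twist1-line controls (-1.73) and Snai1-line controls (-1.55, but adjusted p = 0.0632 without mouse 8). Me1 had -1.03 (adjusted p = 0.0548) in Twist1-deleted mice and -0.69 (adjusted p = 0.333) in Snai1-deleted mice, and with mouse as a fixed block -1.12 (adjusted p = 0.00214) and -0.69 (adjusted p = 0.0407) in these genotypes. With a random block Me1 passed in Twist1-deleted mice (adjusted p = 0.0196) but not in Snai1-deleted mice. Acly, which makes cytosolic acetyl-CoA from citrate, had 0.13 (interval -0.01 to 0.27), and with the series matrix values it had -0.35 averaged, past the threshold, where the all-gene median was -0.093. Acly then also had -0.42 in Twist1-deleted mice and -0.54 in Twist1-line controls, against 0.04 and 0.12 in the values used here. Scd1 spread over a wide range in both kinds of kidney, from 8.07 to 13.12 in obstructed and from 9.01 to 13.02 in contralateral kidneys. Its averaged change was -0.78 (interval -1.74 to 0.19), and -0.88 with mouse as a fixed block (adjusted p = 0.0108). With a random block the averaged change did not pass. In Twist1-line controls Scd1 was 10.51, 8.07 and 9.60 in obstructed kidneys, against 12.17, 11.46 and 10.28 in contralateral kidneys (-1.91, adjusted p = 0.104, or 0.00971 with the fixed block), and the obstructed kidney of mouse 1 lay within the contralateral range. Scd2, its relative, had -0.23, Elovl6, the elongase of palmitate, had 0.11, and Fasn, the fatty acid synthase, had -0.03, and none of these 3 passed.

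Apoe, a lipoprotein component that carries cholesterol and is abundant in macrophages, was the most raised member, 6.85-fold in the averaged comparison (log2 change 2.78, SE 0.24, adjusted p = 3.88e-11). In Twist1-deleted mice Apoe was 11.88, 12.25, 11.62 and 11.18 in obstructed kidneys, against 7.96, 7.39 and 9.86 in contralateral kidneys. In Twist1-line controls it was 11.77, 11.38 and 11.62, against 8.92, 8.33 and 7.34 in contralateral kidneys. Every obstructed kidney lay above every contralateral one. In Snai1-deleted mice Apoe was 10.82, 10.76 and 11.02 in obstructed kidneys, against 8.89, 9.41 and 8.08 in contralateral kidneys. In Snai1-line controls it was 11.55, 10.79 and 11.68, against 9.00, 8.29 and 9.80 in contralateral kidneys. The contralateral kidneys spread more widely than the obstructed ones. The changes were 3.33 in Twist1-deleted mice, 3.39 in Twist1-line controls, 2.07 in Snai1-deleted mice and 2.31 in Snai1-line controls, and all passed, the third no longer without mouse 13 (1.64, adjusted p = 0.113).

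Abcg1, an exporter of cholesterol, rose by 0.72 in the averaged comparison (SE 0.14, adjusted p = 4.5e-05). In Twist1-deleted mice Abcg1 was 5.86, 5.88, 5.70 and 4.73 in obstructed kidneys, against 4.84, 4.40 and 4.70 in contralateral kidneys, where it was not well above background, which gives at least 1.35-fold higher. Without mouse 6 that change was 0.72 (adjusted p = 0.0931). In Twist1-line controls it was 5.97, 6.16 and 6.70, against 4.80, 4.77 and 5.39 in contralateral kidneys (1.29, adjusted p = 0.000395). The obstructed kidney of mouse 7 was again apart, within the contralateral range of its group. Abcg1 did not pass in Snai1-deleted mice (0.47) or Snai1-line controls (0.24). Nr1h3, which encodes LXR-alpha, fell by 0.72 (SE 0.14, adjusted p = 3.57e-05) and its second probe had -1.02. Nr1h3 passed in Twist1-line controls (-1.27) and Snai1-line controls (-0.82, lost without mouse 9 or 10), while Twist1-deleted mice had -0.50 (adjusted p = 0.123) and Snai1-deleted mice -0.29 (adjusted p = 0.544).

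Npc1, the lysosomal membrane protein that lets cholesterol leave the lysosome, rose by 0.88 (SE 0.09, adjusted p = 6.68e-10) on its brightest probe. Npc1 had 9.89, 10.47 and 10.97 as lowest, median and highest value in obstructed kidneys, against 9.26, 9.49 and 9.94 in contralateral kidneys. Only the obstructed kidney of mouse 11 lay within the contralateral range, and 12 of 12 mice were higher in the obstructed kidney. The Npc1 change in Snai1-deleted mice (0.51, adjusted p = 0.0474) did not pass without any 1 of mice 11, 12 and 13, nor with mouse as a fixed block (adjusted p = 0.09). The other 3 kept probes of Npc1 had -0.54, 0.05 and 0.07, so its direction depends on the probe. Npc2, its soluble partner in the lysosome, rose by 0.29 (SE 0.11, adjusted p = 0.0219), a call lost without mouse 2, 6 or 13. The Npc2 call was also lost with the series matrix values (0.20, adjusted p = 0.183). Stard4, which moves sterols between membranes, fell by 0.83 (SE 0.16, adjusted p = 4.34e-05) and was lower in 12 of 12 mice. Stard4 passed in Twist1-line controls (-1.08, adjusted p = 0.00666, but 0.0774 without mouse 2). It also passed in Twist1-deleted mice (-0.82, adjusted p = 0.0297, but 0.221 without mouse 4 and 0.0719 without mouse 5). In Snai1-line controls Stard4 had -0.70 (adjusted p = 0.0921, or 0.0425 with the fixed block), and in Snai1-deleted mice -0.71 (adjusted p = 0.139).

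Other genes of the same pathways, which are no members, were counted by list. Of 8 tested other SREBP and sterol pathway genes 3 were higher, 2 lower and 3 did not pass, with Lpin1, a phosphatidate phosphatase, at -1.56, Lipa, the lysosomal acid lipase, at -0.95 and Lrp1, a lipoprotein receptor, at 0.85. Of 16 other lipid synthesis genes 2 were higher, 11 lower and 3 did not pass, with Dgat2, which makes triglyceride, at -1.64, Acacb, an acetyl-CoA carboxylase, at -1.45 and Fads2, a fatty acid desaturase, at -1.16. Of 6 tested other LXR targets and partners 2 were higher, 2 lower and 2 did not pass, with Rxra, the LXR partner, at -1.03, Pltp, a phospholipid carrier, at 0.43 and Lpcat3, a phospholipid remodelling enzyme, at -0.36. The medians of these lists were 0.11, -0.41 and 0.01 in the same order.

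Markers of cell types moved with obstruction as well. All 12 proximal tubule markers were lower (median -2.17), and their mean log2 level was 9.09 to 10.94 in Twist1-deleted, 7.51 to 9.23 in Twist1-line control, 10.56 to 11.20 in Snai1-deleted and 8.87 to 10.44 in Snai1-line control obstructed kidneys, against group ranges between 11.38 and 11.90 in contralateral kidneys. All 13 tested macrophage markers of 15 listed were higher (median 2.80), at 8.05 to 9.07, 8.80 to 9.01, 8.32 to 8.83 and 8.75 to 9.33 in obstructed kidneys of the same order of genotypes, against 5.86 to 6.99 in contralateral kidneys. Between 11 and 13 of these macrophage markers were detected on each obstructed array. Fibroblast markers (7 of 7 higher, median 2.26) and markers of proliferating cells (3 of 3 tested, median 1.04) were higher as well. Markers of the thick limb, distal tubule and collecting duct (6 of 7 tested lower, median -1.34) and of blood (2 of 2 tested, median -1.61) were lower. Of 4 endothelial markers 3 were higher and 1 lower, and neither of 2 tested podocyte markers passed. Mouse 7 had the highest proximal tubule level of its line (10.94) and the lowest macrophage level of all obstructed kidneys (8.05). Adipose markers reached 9.64 and 9.51 in the obstructed kidneys of mice 5 and 7, and were 6.06 to 7.24 in the other obstructed kidneys. In contralateral kidneys adipose markers were highest in mouse 2 (10.10) and mouse 8 (8.74), and 6.30 to 7.46 in the others. Of 7 adrenal cortex markers 1 was tested and did not pass, and no level of that tissue can be read from it. The part of these cells in the members' changes was not tested.

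Deletion of Twist1 or Snai1 was compared within each line to see whether the deleted kidney expresses these genes differently. No member passed in limma in either line or either kidney. In obstructed kidneys 0.0311% of all genes passed for Twist1 deletion and 0% for Snai1 deletion, with 4 members of 32 at an unadjusted p under 0.05 in each (1475 and 1421 of all genes). In contralateral kidneys 0.00777% passed for Twist1 deletion and 0% for Snai1 deletion, with 2 and 0 members at an unadjusted p under 0.05 (663 and 328 of all genes). Insig2 came closest. In obstructed kidneys Insig2 was 9.76, 8.79, 9.27 and 9.39 in Twist1-deleted mice, against 8.64, 8.41 and 8.82 in Twist1-line controls (log2 change 0.68, SE 0.14, adjusted p = 0.0737). In contralateral kidneys it was 9.79, 9.76 and 9.58 in Twist1-deleted mice, against 9.29, 8.96 and 9.07 in Twist1-line controls (0.60, SE 0.15, adjusted p = 0.492). On this probe, the brighter of the gene, the groups overlapped by mouse 5 in obstructed kidneys and did not overlap in contralateral ones. With the mean of both kept probes the Insig2 change was 0.54 (adjusted p = 0.0425) in obstructed kidneys. It was only 0.29 (adjusted p = 0.758) in contralateral kidneys, so the contralateral gap depends on the probe. The obstructed change of Insig2 passed under 5 of 18 alternatives, with values of 0.53 to 0.90 and adjusted p-values of 0.00435 to 0.907. In Snai1-deleted mice Insig2 was 9.46, 9.48 and 9.50 in obstructed kidneys, against 9.37, 9.29 and 9.23 in Snai1-line controls (0.18, SE 0.15, adjusted p = 0.718). On the brighter probe Insig2 was 9.31 to 9.88 in healthy kidneys of all 4 groups, and both kidneys of all Twist1-line controls lay below that range.

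The other members at an unadjusted p under 0.05 did not pass adjustment. For Twist1 deletion in obstructed kidneys they were Srebf2 (-0.53, adjusted p = 0.298), Me1 (0.97, adjusted p = 0.401) and Abcg1 (-0.73, adjusted p = 0.307), and in contralateral kidneys Sc5d (0.58, adjusted p = 0.853). For Snai1 deletion in obstructed kidneys they were the sterol enzymes Mvd (0.81, adjusted p = 0.294), Lss (0.62, adjusted p = 0.395), Cyp51 (1.01, adjusted p = 0.45) and Tm7sf2 (0.53, adjusted p = 0.355). Over all members, 26 of 32 were higher in Snai1-deleted than in Snai1-line control obstructed kidneys (median 0.30), and 26 of 32 in Twist1-deleted than in Twist1-line control ones (median 0.15). Over all genes these medians were -0.01 and -0.02, and without mouse 7 the median of the members for Twist1 deletion was -0.01. Proximal tubule markers averaged 9.09 to 10.94 in Twist1-deleted obstructed kidneys, against 7.51 to 9.23 in Twist1-line controls, and 10.56 to 11.20 in Snai1-deleted ones, against 8.87 to 10.44 in Snai1-line controls, and their part in the members' levels was not tested.

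The test of whether the obstruction response itself differed with genotype called no member in limma. For Twist1-deleted minus control mice 0% of genes passed and 1 member had an unadjusted p under 0.05 (757 of all genes), Npc1 at -0.55 (SE 0.24, adjusted p = 0.827). For Snai1-deleted minus control mice 0% passed and again 1 member had an unadjusted p under 0.05 (408 of all genes), Fasn at -0.59 near background (adjusted p = 1). For Snai1-line minus Twist1-line controls 0.0389% of genes passed and 2 members had an unadjusted p under 0.05 (1259 of all genes). These were Srebf1 (1.29, SE 0.43, adjusted p = 0.309, with contralateral Snai1-line values near background) and Abcg1 (-1.05, SE 0.40, adjusted p = 0.395).

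In healthy kidneys cre itself was compared in wild-type mice, with 0.0155% of genes past the threshold in limma, and 0 of 32 members had an unadjusted p under 0.05 (306 of all genes). Healthy Twist1-deleted kidneys were set against ggt-cre+;WT kidneys, where 3.39% of genes and 3 members passed. Elovl6 was 10.21, 10.16 and 9.91 in Twist1-deleted kidneys, against 7.84, 7.61 and 7.89 in ggt-cre+;WT kidneys (2.32, SE 0.66, adjusted p = 0.0473). Acly was 11.99, 11.90 and 12.17, against 11.54, 11.40 and 11.34 in ggt-cre+;WT kidneys (0.59, SE 0.14, adjusted p = 0.0213). Idi1 was 5.25, 5.12 and 5.36, against 6.25, 6.59 and 6.82 in ggt-cre+;WT kidneys (-1.31, SE 0.26, adjusted p = 0.00839). None of these groups overlapped. The Elovl6 call was lost without any 1 of the 6 mice (adjusted p = 0.103 to 0.141), that of Acly without mouse 15, 16, 20 or 22 and that of Idi1 without mouse 16 (adjusted p = 0.0608). The mice also differed in age (26 against 10 weeks) and in the Xist reading given below, and neither can be told apart from the deletion. Healthy Snai1-deleted kidneys, set against the same ggt-cre+;WT kidneys, had 0.871% of genes and 0 members past the threshold in limma, with 6 members at an unadjusted p under 0.05 (1299 of all genes), led by Dhcr7 (0.74, adjusted p = 0.0741) and Sqle (0.98, adjusted p = 0.142). In this comparison both age and the labelled strain background differed along with the deletion, and the 3 cannot be told apart.

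Elovl6 and Scd1 also followed a reading that the labels do not give. Xist, the RNA that coats the inactive X chromosome of females, exceeded 3 Y-linked genes in 8 mice of 25, and the 12 mice with both kidneys gave the same reading in each. These were mice 1, 7, 10, 12, 17, 20, 21 and 22, which is 1 mouse in every operated group, 3 of 3 healthy Twist1-deleted mice, 0 of 3 healthy Snai1-deleted mice, 0 of 3 ggt-cre+;WT mice and 1 of 3 ggt-cre-;WT mice. Over the non-obstructed kidneys, Elovl6 had 8.88, 10.04 and 10.96 as lowest, median and highest value in the 8 kidneys with Xist above the Y-linked genes, against 7.31, 7.69 and 8.54 in the other 16. Scd1 had 11.58, 12.24 and 13.02 in the 8 kidneys, against 8.98, 9.84 and 11.46 in the other 16. The values of these 2 of 32 members did not overlap, which was so for 2.13% of all genes. Apoe overlapped but had medians of 9.80 against 8.41, and Idi1 had 5.44 against 6.35. Between healthy Twist1-deleted and ggt-cre+;WT kidneys the reading coincided with deletion and age, so an adjustment for it there rests on the other groups. With the Xist reading as a covariate, chosen after seeing the data, 38 genes and 0 members passed in that comparison. Elovl6 then had 0.72 (SE 0.31, adjusted p = 0.298), Idi1 -0.93 (adjusted p = 0.0858), Acly 0.54 (adjusted p = 0.115) and Scd1 0.21, against 2.21 without it. The same fit called 19 members lower and 4 higher in the averaged obstruction comparison, where 8214 of all 12866 genes passed.

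**Figure D3:**
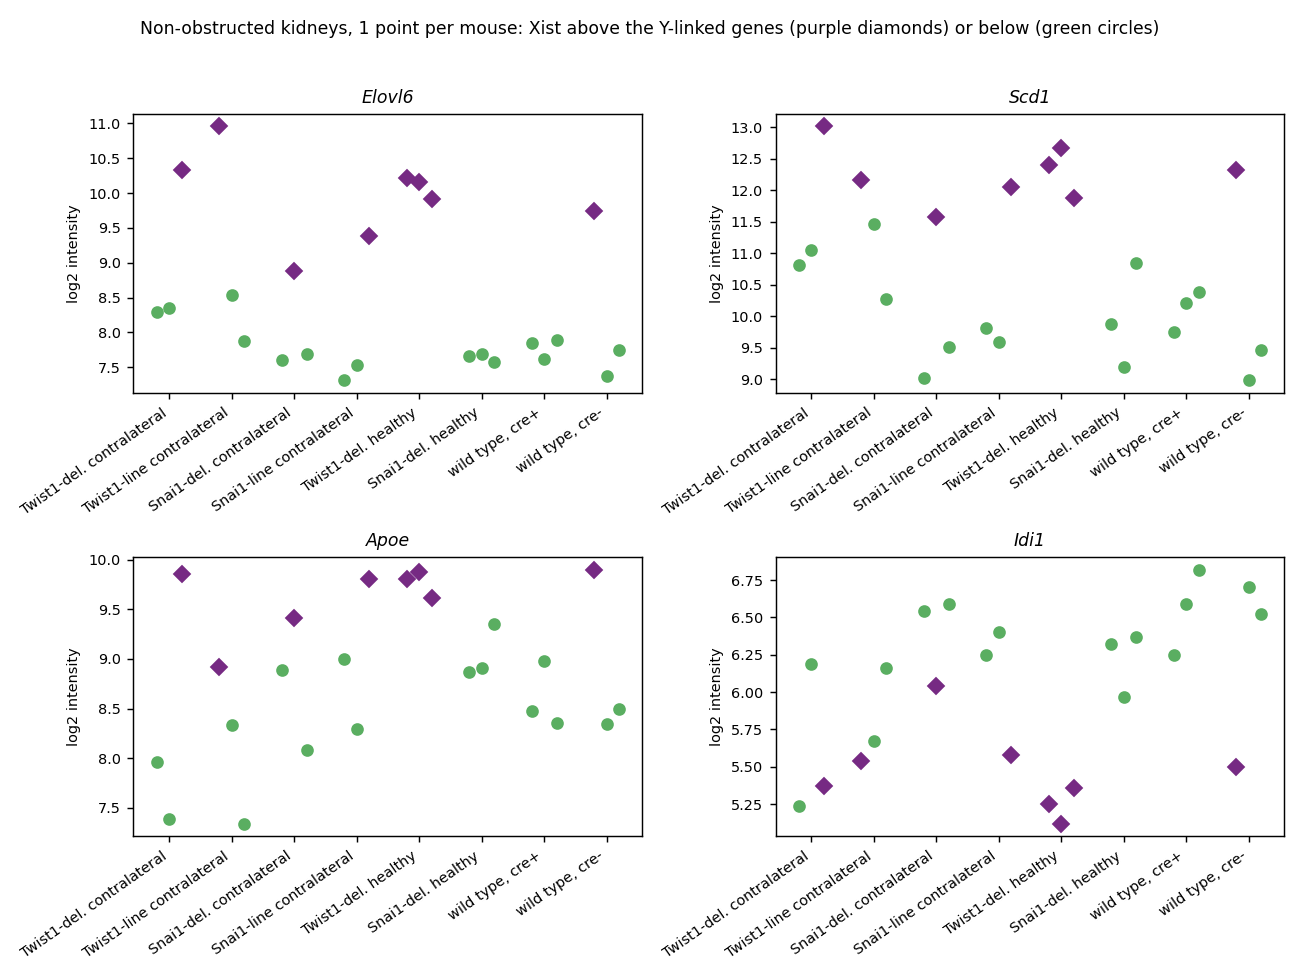
Log2 intensity (y axis) of Elovl6, Scd1, Apoe and Idi1 in the non-obstructed kidneys of 8 groups (x axis), 1 point per mouse, with purple diamonds for the 8 mice in which Xist exceeded the Y-linked genes and green circles for the other 16. For Elovl6 the diamonds run from 8.88 to 10.96 and the circles from 7.31 to 8.54, and for Scd1 from 11.58 to 13.02 and from 8.98 to 11.46.

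The control mice of the 2 lines differed already in their contralateral kidneys, where strain background and line cannot be told apart. Between Snai1-line and Twist1-line controls 13.3% of genes and 6 members passed, of which 1 was higher and 5 lower. Msmo1 was 7.25, 6.64 and 7.22 in Snai1-line controls, against 9.35, 9.17 and 9.64 in Twist1-line controls (-2.35, SE 0.42, adjusted p = 0.00107). The same gap stood in the deleted mice, with Msmo1 at 7.16, 8.27 and 7.22 in Snai1-deleted contralateral kidneys, against 9.85, 9.24 and 9.22 in Twist1-deleted ones. Healthy Snai1-deleted kidneys, of the same labelled background as the low ones, had 9.35, 8.62 and 9.00, and 1 ggt-cre+;WT kidney had 7.22 beside 9.59 and 9.67.

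Srebf1 was 4.90, 5.12 and 4.65 in Snai1-line controls, against 6.73, 6.17 and 6.37 in Twist1-line controls (-1.53, SE 0.30, adjusted p = 0.00206), but the probe was above background on only 1 of the 3 Snai1-line arrays, so that the size of this difference rests on values near background. Srebf2 was 6.39, 7.14 and 7.01, against 8.00, 7.66 and 7.60 in Twist1-line controls (-0.91, SE 0.20, adjusted p = 0.00475). Both SREBP genes were thus lower in the Snai1-line controls with no overlap. Acly (-0.59, adjusted p = 0.0064) and Sqle (-0.91, adjusted p = 0.0375) were lower as well. With the series matrix values Acly had -0.13 (adjusted p = 0.528) and Sqle had -0.49 (adjusted p = 0.133), and neither passed. Npc2 was higher, at 9.09, 8.82 and 9.10 in Snai1-line controls, against 7.83, 8.03 and 8.06 in Twist1-line controls (1.03, SE 0.22, adjusted p = 0.00342). Without mouse 8 the calls of Srebf2 (adjusted p = 0.0604) and Acly (adjusted p = 0.0547) were lost and 3 members passed, and that of Sqle was lost without any of mice 1, 3, 8, 9 and 10. In a fit over only the groups compared Srebf2 (adjusted p = 0.0635) and Acly (adjusted p = 0.0745) did not pass. Sqle did not pass with the mean of its kept probes (-0.60, adjusted p = 0.145).

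Twist1-line control contralateral kidneys were also set against healthy ggt-cre-;WT kidneys of the same labelled background and age, and 17.7% of genes and 5 members passed. Acly was 12.36, 12.10 and 11.99 in contralateral kidneys, against 11.43, 11.41 and 11.27 in healthy ones (0.78, SE 0.14, adjusted p = 0.00076). With the series matrix values Acly had 0.33 and did not pass (adjusted p = 0.0738). Npc2 was 7.83, 8.03 and 8.06 in contralateral kidneys, against 9.27, 9.10 and 8.73 in healthy ones (-1.06, SE 0.22, adjusted p = 0.00204). Neither gene's groups overlapped. Srebf1 (0.86, adjusted p = 0.0498) and Srebf2 (0.60, adjusted p = 0.041) were higher in contralateral kidneys. Sc5d was 4.75, 4.81 and 4.73 in contralateral kidneys, where it was not well above background, against 5.69, 5.62 and 5.13 in healthy ones, and was at least 1.38-fold lower in contralateral kidneys (adjusted p = 0.0418). The Srebf1 call was lost without any 1 of the 6 mice, and those of Srebf2 and Sc5d without any of 5 mice, so that without mouse 1 the count was 2 members. With the series matrix values Srebf1 (0.54, adjusted p = 0.203) and Srebf2 (0.33, adjusted p = 0.226) did not pass. Srebf2 did not pass with the mean of its kept probes either (0.31, adjusted p = 0.116). Sc5d did not pass under quantile normalisation without a background step (-0.23, adjusted p = 0.0725). These groups come from different mice, and contralateral kidneys had an operated mate while healthy ones had none.

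**Figure D4:**
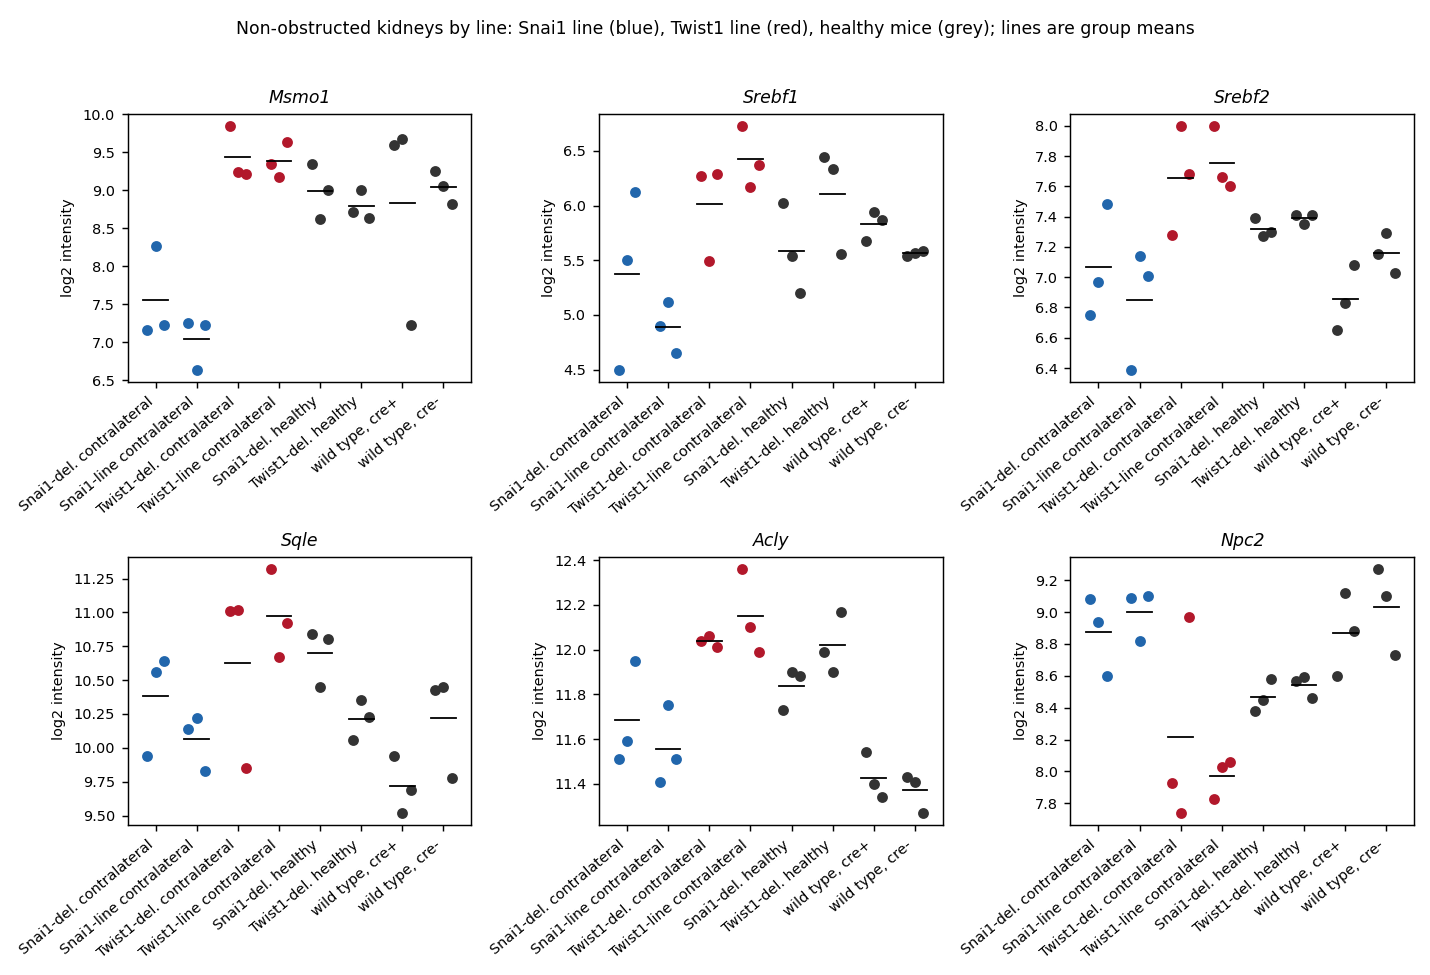
Log2 intensity (y axis) of Msmo1, Srebf1, Srebf2, Sqle, Acly and Npc2 in non-obstructed kidneys by group (x axis), 1 point per array, with blue for the Snai1 line, red for the Twist1 line, grey for healthy mice and lines at group means. Contralateral Snai1-line control values of Msmo1 (6.64 to 7.25) lie below all Twist1-line values, and Npc2 values of the Snai1-line controls (8.82 to 9.10) lie above those of the Twist1-line controls (7.83 to 8.06).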

How the data were processed

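Per the labels' protocols, RNA was extracted from kidney with Trizol and biotin-labelled cRNA was hybridised to Illumina arrays. The submitters' processing notes name GenomeStudio 5.0. The deposited table holds 1 average signal intensity per probe and array, not normalised, per the file headers, and beside it a deposited detection p-value. The scaling of the authors' series matrix, whose intensity values correlated with the same signals at r = 1 on every array, is not given in the sources used here, and it served as an alternative.

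The neqc routine of limma 3.58.1 (in R 4.3.3) corrected the background and set all arrays to 1 distribution, with an offset of 16 before log2. Probes with a detection p under 0.05 on at least 3 of 37 arrays were kept if they had 1 gene symbol (20612 probes, as 34885 had 1 symbol, 18 several and 10378 none), with 1 probe per gene, that of the highest mean. The precision is limited by the number of arrays. limma fitted 12 group means over all arrays and 17 comparisons were read. Kidneys of 1 mouse pair by the mouse number in the labels: residuals of the 12 pairs correlated at 0.171 to 0.63 (consensus 0.233). The main model left mouse out, and fits with mouse as a block are alternatives, as are other normalisations, filters, probe rules, array weights and leaving out each mouse. No column of the table was left without a sample. Values on every array, or the lowest, median and highest, are given for members past the threshold in at least 3 of 4 obstruction comparisons, and members past it in other comparisons are named with their values. The members, gene lists and comparisons were chosen with earlier results of these data known.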

Additional observations from a re-analysis of the deposited data

Results flagged for a closer look

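In the 4 obstructed Twist1-deleted kidneys, the group large enough for a test of a single far sample (Dixon's, at the 95% level), 6 of 32 members had 1 kidney far from the other 3. Over all 12866 genes tested in the same 4 arrays the share was 8.67%, of which mouse 7 made up 842 genes (6.54%) and mouse 5 made up 75 (0.583%), and chance gives about 1 in 20. In mouse 7 Cyp51 was 10.57 (others 7.29 to 7.81), Elovl6 was 10.45 (others 8.80 to 8.90), Stard4 was 9.52 (others 8.44 to 8.61) and Abcg1 was 4.73 (others 5.70 to 5.88). In mouse 5 Msmo1 was 7.92 (others 8.97 to 9.14) and Hsd17b7 was 9.19 (others 10.03 to 10.09). Mouse 7 was the mouse of this group with Xist above the Y-linked genes, and its proximal tubule markers averaged 10.94, against 9.09 to 9.82 in the other 3. Mice 5 and 7 also had the highest adipose markers of the group (9.64 and 9.51, against 6.70 and 7.24). The part of these in the far values was not tested.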

How the results depend on the processing

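Values of single members under other settings were tallied for all members in the obstruction comparisons. In the other comparisons only members past the threshold in the main model were tallied, so new passes there are not counted here. Of these values 1805 kept their side of the threshold, 78 newly passed, 72 no longer passed and 4 reversed. A reversal is a change of sign with a call in either fit, and a change of sign without any call was counted as kept. With 1 mouse left out 820 kept their side of the threshold, 13 newly passed and 83 no longer passed. The reversals were Srebf2 in Twist1-line controls with the mean of all its probes (-0.73) and Acly with the series matrix values, at -0.54 in Twist1-line controls, -0.42 in Twist1-deleted mice and -0.35 averaged. The Xist covariate and leaving out mice 5 and 7 together were chosen after seeing the data. The cause of the changes below was not tested. A fit over only the groups compared has fewer arrays and takes its spread from those groups alone.

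In the obstruction comparisons, quantile normalisation without a background step gave members' medians of -0.32 in Twist1-deleted mice, -0.34 in Twist1-line controls and -0.27 in Snai1-line controls. A fit over only the groups compared called 2710 genes and 5 members in Twist1-deleted mice and 1161 genes in Snai1-deleted mice. With mouse as a fixed replicate block 8 members passed in Snai1-deleted mice, as they did with array weights and with the Xist covariate. In these fits the count of all genes stayed within 1.5 times the 1959 of the main model. Pairing by mouse moved these other counts: the random replicate block called 2 genes for Twist1 deletion in obstructed kidneys, 1 gene for the Twist1 response difference and 54 genes for the response difference between the lines, where the fixed block called 0. Neither block moved another count by more than 1.5 times.

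For Twist1 deletion in obstructed kidneys the count of 4 genes became 8 without a background step, 0 with the series matrix, 13 with an offset of 50, 2 without a filter, 1 with array weights, 7 with the Xist covariate and 0 over only the groups compared. The member count became 1, Insig2, with an offset of 50, with the mean of all probes and without mice 5 and 7. For Snai1 deletion in obstructed kidneys 2 genes passed without a background step, 3 with an offset of 50, 487 with array weights and 5 with the Xist covariate. For Twist1 deletion in contralateral kidneys 0 passed without a background step or with the series matrix, 6 without a filter, 3 with array weights, 2 with the Xist covariate and 3 without mice 5 and 7. The Twist1 response difference had 1 gene without a filter and 2 without mice 5 and 7. The response difference between the lines had 0 genes with the series matrix, with the mean of all probes and over only the groups compared, 8 with an offset of 50 and 25 with array weights.

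For cre in wild-type kidneys 1 gene passed without a background step, with an offset of 50 and over only the groups compared, and 4 with array weights. For healthy Twist1-deleted kidneys 1078 genes passed with the series matrix, 2885 genes and 9 members with array weights, 38 genes and 0 members with the Xist covariate, and 2142 genes and 8 members over only the groups compared. For healthy Snai1-deleted kidneys 268 genes and 3 members (Sqle, Dhcr7 and Acly) passed with the series matrix, 1061 genes and 5 members (Sqle, Dhcr7, Srebf2, Scap and Acly) with array weights, and 419 genes and 3 members (Sqle, Dhcr7 and Scd2) over only the groups compared. Between contralateral Twist1-line control and healthy wild-type kidneys 3504 genes passed with the series matrix, where the members' median was -0.23 in place of 0.09, and 3 members passed without a filter. Between the contralateral control kidneys of the lines 3242 genes passed with the series matrix, where the members' median was 0.25 in place of -0.05, and 743 genes over only the groups compared.

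With each mouse left out in turn, the number of genes past the threshold ran from 608 (mouse 13) to 1509 for obstruction in Snai1-deleted mice, from 1 to 82 (mouse 3) for Twist1 deletion and from 0 to 6 (mouse 9) for Snai1 deletion in obstructed kidneys, and from 1 to 4 (mouse 1) for Twist1 deletion and from 0 to 2 (mouse 10) for Snai1 deletion in contralateral kidneys. It ran from 0 to 2 (mouse 7) for the Twist1 response difference, from 0 (mouse 3) to 10 for that between the lines, and from 1 to 7 (mouse 16) for cre. It ran from 64 (mouse 16) to 148 in healthy Twist1-deleted and from 46 (mouse 24) to 74 in healthy Snai1-deleted kidneys, from 1406 to 1718 in contralateral Twist1-line against healthy kidneys, and from 649 (mouse 8) to 1559 between the lines. The number of members ran from 10 (mouse 5) to 20 (mouse 7) for obstruction in Twist1-deleted mice, from 1 (mouse 13) to 4 in Snai1-deleted mice, from 0 to 1 for Twist1 deletion in obstructed kidneys, from 0 (mouse 16) to 2 in healthy Twist1-deleted kidneys, from 2 (mouse 1) to 5 in contralateral Twist1-line against healthy kidneys, and from 3 (mouse 8) to 6 between the lines. Fasn, Abcg1, Sc5d, Idi1 in obstructed kidneys and Srebf1 in contralateral Snai1-line kidneys lay near background, where the offset limits the size of a fold.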
